A study of Mus musculus with 8 samples.

Results

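The cytochrome P450 genes of families 1, 2 and 3 were taken as every row of the count table whose symbol begins with Cyp1, Cyp2 or Cyp3 followed by a single subfamily letter and a digit, with pseudogene symbols ending in -ps left out. The rule found 60 genes among 24421 symbols, in 16 subfamilies. Cyp2d37-ps and Cyp2c53-ps were left out as pseudogenes and Cyp2ab1 because its subfamily has a pair of letters. Liver RNA of adult C57BL/6N mice aged 8 to 10 weeks was profiled by stranded poly(A) sequencing, with 4 WT and 4 CAPZ_KO libraries. CAPZ_KO livers came from Albumin-CreERT2;Capzb-fl/fl mice given tamoxifen, which switches on a Cre recombinase driven by the albumin promoter and so recombines Capzb, the beta subunit gene of the actin capping protein, in hepatocytes, while other liver cells keep the gene. WT livers came either from Capzb-fl/fl mice without Cre that received tamoxifen or from Albumin-CreERT2;Capzb-fl/fl mice that did not. Which library is of which kind is not in the labels. All animals therefore carried the floxed gene on the same background, but exposure to tamoxifen, itself a substrate and regulator of P450 enzymes, cannot be told apart from the deletion in any value below. The protocol gives 5 daily injections from an age of 4 to 6 weeks. The labels do not state that each library is a separate animal. The sex calls below put different animals in each group, but libraries of the same sex may share an animal. The p-values then rest on the scatter of these samples alone, which may be technical in part.

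P450 enzymes of families 1 to 3 are heme proteins of the endoplasmic reticulum that oxidise drugs, pollutants, steroids, fatty acids and vitamins, and the hepatocyte is their main site. They take electrons from the reductase Por and from cytochrome b5, and their genes are controlled by the xenobiotic receptors CAR (Nr1i3), PXR (Nr1i2) and AhR (Ahr) together with liver factors such as HNF4A. In the mouse many lie in clusters of near-identical copies, some are confined to a single zone of the liver lobule, and several differ between the sexes under the pattern of growth hormone release.

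WT libraries held from 12060350 to 18916315 counts, and CAPZ_KO libraries from 13122355 to 16984971. Levels are CPM (each count as a share of its library total, scaled by the TMM method), which allows comparison of a gene between libraries. For Capzb WT 1 to WT 4 gave 139.6, 109, 118 and 114 CPM, against 69.4, 79.6, 64.5 and 76.4 CPM in CAPZ_KO 1 to CAPZ_KO 4, a log2 fold change of −0.73 ± 0.125 (SE, adjusted p 0.00134 by edgeR). Every CAPZ_KO library was below every WT library, and the count covers the whole gene in all liver cells. Libraries WT 4 and CAPZ_KO 4 held Xist at 351 and 208 CPM and no read of 4 Y-linked genes, while the other 6 libraries held Xist at no more than 0.426 CPM and Y-linked genes at 94.2 to 169 CPM. The labels give no sex. WT 4 and CAPZ_KO 4 are called female and the others male from here on, and values without both are given where they change a result. Of 19 hepatocyte markers tested, none of them a P450, 14 were lower in CAPZ_KO and 0 higher (edgeR adjusted p under 0.05), where 19.0% of all tested genes were lower and 22.4% higher, and their summed level was 250958 to 305907 CPM in WT and 99219 to 138801 in CAPZ_KO. Of these markers Ass1 was at 1.12 and 0.298 CPM and was not tested. Summed markers of stellate cells were at 366 to 438 CPM in WT and 915 to 1425 in CAPZ_KO, with 9 of 10 higher. Those of monocyte-derived macrophages were at 39.1 to 61.8 and 215 to 284 CPM (7 of 8 higher), and those of cholangiocytes at 69.8 to 96.8 and 397 to 1142 CPM (6 of 10 higher). Kupffer cell, endothelial and neutrophil markers had 3 of 6, 2 of 8 and 2 of 5 higher, T and NK cell and B cell markers none of 7 and 4, and the endothelial share is near the 22.4% of all genes. The part of these cells in the P450 values was not tested. In whole liver, fewer hepatocytes and less RNA per hepatocyte cannot be told apart.

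Most of the tested P450 genes of these families fell in CAPZ_KO liver, and the summed level of the 60 genes dropped to 32.8% of WT. The sum was 33651, 37929, 29820.2 and 34718 CPM in the WT libraries and 9562, 13657, 9488 and 11952 in the CAPZ_KO libraries. Every CAPZ_KO library therefore lay below every WT library. The hepatocyte markers summed in the same way stood at 42.6% of WT, a figure that rests largely on Alb. It held a mean of 146748 CPM of a sum of 274902 in WT, and 34699 of 117088 in CAPZ_KO. Of the 19 tested markers 14 fell and 5 were not called, among them the abundant Trf, Hpx and Ahsg. As a share of raw counts, before any scaling, the genes took 2.38 to 3.05% of a WT library and 1.20 to 1.61% of a CAPZ_KO library.

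Of the 60 genes, 45 had enough counts to be tested, 8 had no count in any library and 7 had too few. Among the 45 tested, 28 were lower, 1 was higher and 16 were not called at an edgeR adjusted p under 0.05, against 19.0% of all 12985 tested genes called lower and 22.4% called higher. The median log2 fold change, CAPZ_KO against WT, was −1.68 over the tested P450 genes and −0.0029 over all tested genes. All 4 CAPZ_KO libraries lay below all 4 WT libraries in 26 of the 45 genes (18.2% of all tested genes) and above them in 1 (22.1%). A gene that reaches the count minimum only through WT had to be lower, so these counts describe the tested genes and not the 60. P450 genes of families 4 and above, which make bile acids, steroids and fatty acid derivatives, had 13 of 25 lower and 3 higher with a median of −1.33, and no test of a difference from families 1 to 3 was made. Scaled by library sizes alone, which moved the median of all genes by 0.62, 24 P450 genes were lower and 5 higher, so that 17.2% of the P450 calls were higher against 3.45% with TMM. Over all genes that scaling called 5.39% lower and 59.0% higher, and 91.6% of all calls were higher against 54.1% with TMM.

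**Figure D1:**
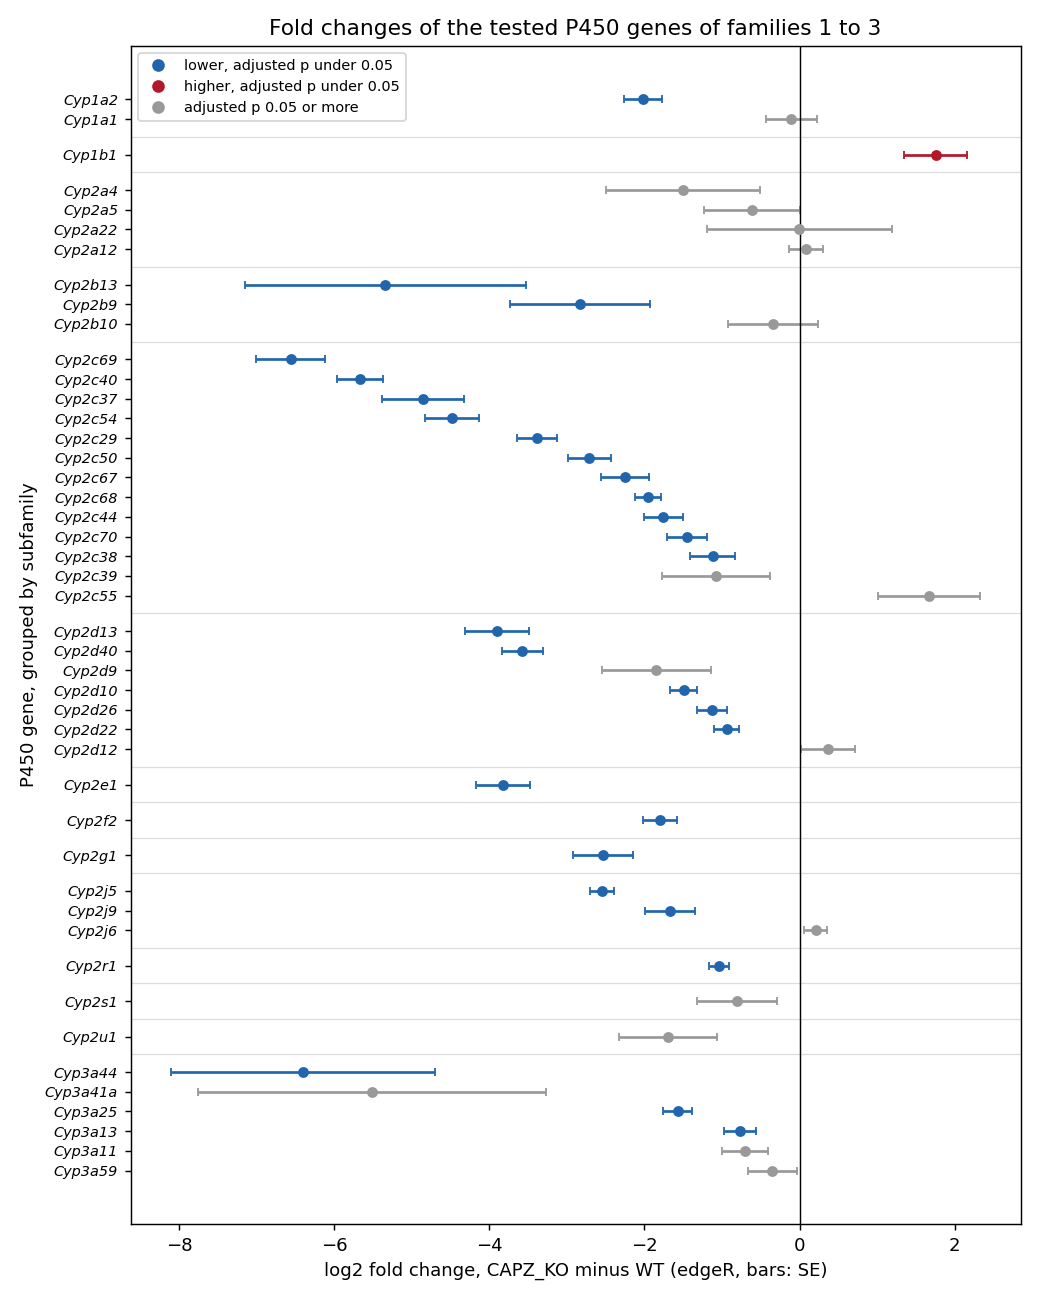
Log2 fold change of each tested P450 gene, CAPZ_KO minus WT, with its SE, grouped by subfamily. Blue genes were lower and the red gene higher at an edgeR adjusted p under 0.05, and grey genes were not called. The points run from −6.56 for Cyp2c69 to 1.75 for Cyp1b1. With library sizes alone Cyp1a1, Cyp2a22, Cyp2b10 and Cyp3a59, all grey, changed sign.

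Cyp2e1, the ethanol- and paracetamol-oxidising enzyme of the pericentral zone, had the highest mean level per kilobase of annotated exon in WT liver. Among the members with an exon length, Cyp3a11 held that place in CAPZ_KO liver. For Cyp2e1 WT 1 to WT 4 gave 8133, 8691, 8783 and 11573 CPM, against 395, 918, 385 and 922 CPM in CAPZ_KO 1 to CAPZ_KO 4. The highest CAPZ_KO library stood far below the lowest WT library. The log2 fold change was −3.83 ± 0.351 (SE, adjusted p 4.7e-05 by edgeR), and the CAPZ_KO mean was 7.05% of the WT mean. Cyp2e1 (chromosome 7, 140763739 to 140774987, GRCm38) shares no stretch of 50 coding bases with another gene. Cyp3a11, the main hepatic 3A enzyme of mice and a target of PXR, was not called. For Cyp3a11 WT 1 to WT 4 gave 9715, 14100.3, 5469 and 5651 CPM, against 4949, 6276, 4685 and 5586 CPM in CAPZ_KO 1 to CAPZ_KO 4. WT 1 and WT 2 lay above all CAPZ_KO libraries, while WT 3 and WT 4 lay within their range. Its log2 value was −0.70 ± 0.298 (SE) at an edgeR adjusted p of 0.0838, which was 0.043 without WT 3, 0.035 without WT 4 and 0.0361 by DESeq2. Per kilobase of exon, Cyp2e1 stood at 4307 and Cyp3a11 at 1715 RPKM (CPM divided by exon length in kilobases) in WT, and at 304 and 1055 RPKM in CAPZ_KO. That length joins the exons of all annotated transcripts, 2158 bases for Cyp2e1 and 5093 for Cyp3a11, while their coding sequences have 1479 and 1512 bases. The gap between the genes in WT therefore depends on the length used. In CPM, Cyp3a11 was above Cyp2e1 in WT 1 and WT 2 and below it in WT 3 and WT 4.

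The makeup of the P450 counts changed with these levels. The 3A genes took 28.2% ± 9.33 of the counts of families 1 to 3 in WT and 52.0% ± 2.56 in CAPZ_KO (SD, n = 4). Cyp2e1 took 27.5% ± 4.83 and 5.66% ± 1.85, and the 2C genes 18.7% ± 2.61 and 9.80% ± 0.647. The groups did not overlap in any of these 3 shares. The 2A genes took 6.47% ± 4.05 in WT and 14.1% ± 2.95 in CAPZ_KO, where WT 4 at 12.3% lay above CAPZ_KO 1 at 10.2%. In summed level, which the shares do not show, the 2C genes were at 17.2% of WT, the 2J genes at 26.9%, the 2D genes at 38.2%, the 3A genes at 59.1% and the 2A genes at 72.3%. Subfamily sums are descriptions and were not tested.

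**Figure D2:**
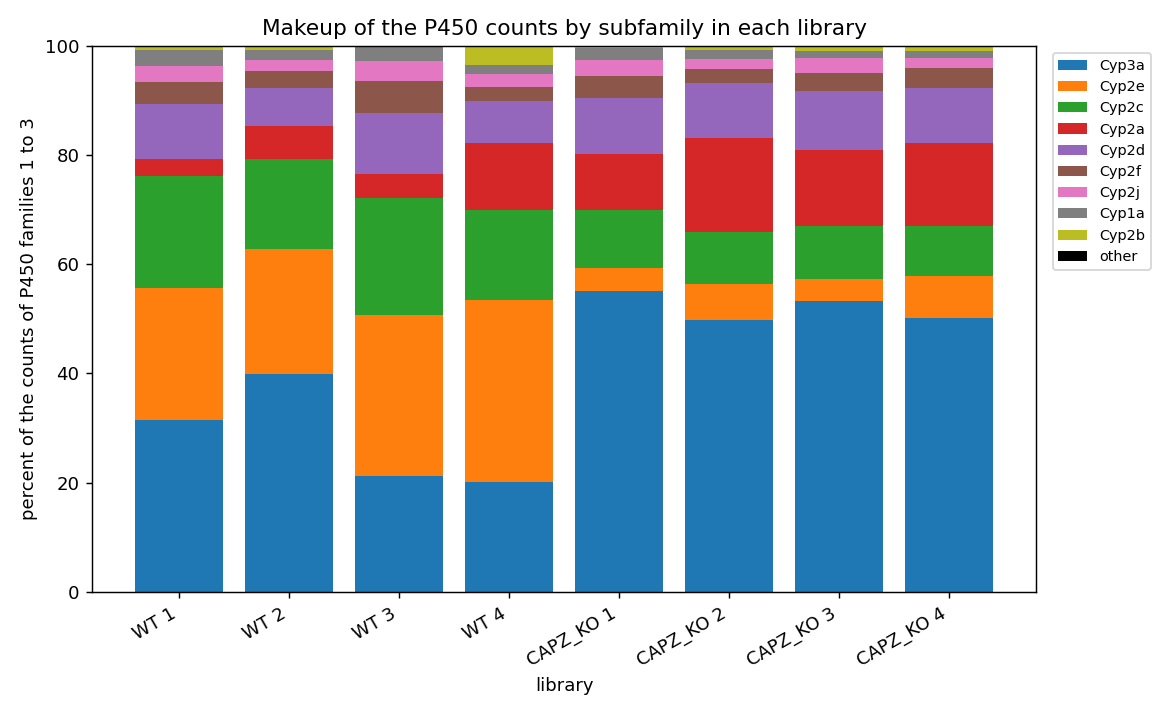
Percent of the raw counts of P450 families 1 to 3 that each subfamily took, 1 stacked bar per library. Cyp2e took 22.9% to 33.3% of a WT bar and 4.06% to 7.72% of a CAPZ_KO bar, and Cyp3a took 20.2% to 39.9% and 49.7% to 55.1%.

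Family 1 holds the targets of the dioxin receptor AhR. Cyp1a2, the pericentral caffeine demethylase (chromosome 9, 57676937 to 57683703), fell. For Cyp1a2 WT 1 to WT 4 gave 967, 684, 752 and 562 CPM, against 213, 241, 129.96 and 146 CPM in CAPZ_KO 1 to CAPZ_KO 4. All CAPZ_KO libraries lay below all WT libraries, with a log2 fold change of −2.02 ± 0.244 (SE, adjusted p 0.00019 by edgeR). Its neighbour Cyp1a1, the enzyme that dioxin-like ligands of AhR induce most, was barely detected in either group, at 1.45 ± 0.620 CPM (WT) and 1.34 ± 0.143 CPM (CAPZ_KO, mean ± SD, n = 4, adjusted p 0.816 by edgeR). Cyp1b1, which hydroxylates oestrogens and polycyclic hydrocarbons and is known mainly from cells outside the hepatocyte lineage, was the gene of these families that rose. For Cyp1b1 WT 1 to WT 4 gave 1.07, 0.526, 0.426 and 0.583 CPM, against 1.98, 3.09, 2.36 and 1.12 CPM in CAPZ_KO 1 to CAPZ_KO 4. The lowest CAPZ_KO library, CAPZ_KO 4, stood just above the highest WT library, WT 1. The log2 fold change was 1.75 ± 0.404 (SE, adjusted p 0.00627 by edgeR). Raw counts of Cyp1b1 were 6 to 10 per WT library and 22 to 62 per CAPZ_KO library, and the stellate cell markers rose in the same libraries, whose part in the result was not tested.

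Subfamily 2C holds arachidonic acid epoxygenases and steroid hydroxylases. It had 11 of 13 tested genes lower and 0 higher, against 19.0% and 22.4% of all tested genes. It also had the largest fall of all tested members. Cyp2c29 (chromosome 19, 39269405 to 39330713) was its most abundant gene, and WT 1 to WT 4 gave 2039, 1829, 2323 and 1323 CPM, against 187, 251, 142 and 139.7 CPM in CAPZ_KO 1 to CAPZ_KO 4. The groups lay far apart (log2 fold change −3.38 ± 0.259 SE, adjusted p 1.74e-05 by edgeR). The larger falls came from a pair of neighbours on chromosome 19. For Cyp2c69 WT 1 to WT 4 gave 221, 142, 82.0 and 310.0 CPM, against 1.62, 2.09, 2.18 and 2.10 CPM in CAPZ_KO 1 to CAPZ_KO 4, and the log2 fold change was −6.56 ± 0.443 (SE, adjusted p 1.32e-05 by edgeR). For Cyp2c40 WT 1 to WT 4 gave 224, 269, 138 and 265 CPM, against 3.97, 4.58, 6.05 and 3.07 CPM in CAPZ_KO 1 to CAPZ_KO 4, and the log2 fold change was −5.67 ± 0.296 (SE, adjusted p 2.64e-06 by edgeR). Both had all CAPZ_KO libraries at 6.05 CPM or less and all WT libraries at 82.0 CPM or more. Cyp2c37, Cyp2c54 and Cyp2c50, pericentral genes that follow them on the chromosome, had log2 values of −4.85, −4.48 and −2.71 (adjusted p 0.000158, 2.22e-05 and 8.22e-05 by edgeR). Cyp2c67 and Cyp2c68, the near-identical copies on the other side, had smaller falls, of −2.25 and −1.96 on the log2 scale (adjusted p 0.000428 and 3.22e-05 by edgeR). Cyp2c40, Cyp2c67, Cyp2c68 and Cyp2c69 share 45.5% to 75.3% of their 50-base coding stretches with other genes. Cyp2c37, Cyp2c50 and Cyp2c54 share 26.9% to 32.4%, so the falls in 2C are not all separate cases. Cyp2c70, the enzyme that makes the muricholic acids of mouse bile, the epoxygenase Cyp2c44 and Cyp2c38 fell as well, with log2 values of −1.45, −1.76 and −1.12 and edgeR adjusted p of 0.00144, 0.000484 and 0.013.

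Cyp2c55, which activators of CAR and PXR induce in mouse liver, lies at the other end of the same cluster and had a positive log2 fold change that was not called over all libraries. For Cyp2c55 WT 1 to WT 4 gave 25.1, 19.5, 12.8 and 1.69 CPM, against 62.0, 46.3, 56.0 and 21.4 CPM in CAPZ_KO 1 to CAPZ_KO 4. CAPZ_KO 4 at 21.4 CPM lay below WT 1, so that the groups overlapped, and both female libraries were the lowest of their group. Its log2 value was 1.66 ± 0.660 (SE) at an edgeR adjusted p of 0.0746. In the males alone, 3 libraries against 3, it was 1.52 with an adjusted p of 0.00153, without WT 4 the adjusted p was 0.0242, and with the replicate number as a block it was 0.00701. Cyp2c39, the remaining gene of the cluster that was tested, had −1.08 (adjusted p 0.243 by edgeR). Cyp2c66 had no count, and Cyp2c65 had none in WT and 14 over CAPZ_KO 2 and CAPZ_KO 3.

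**Figure D3:**
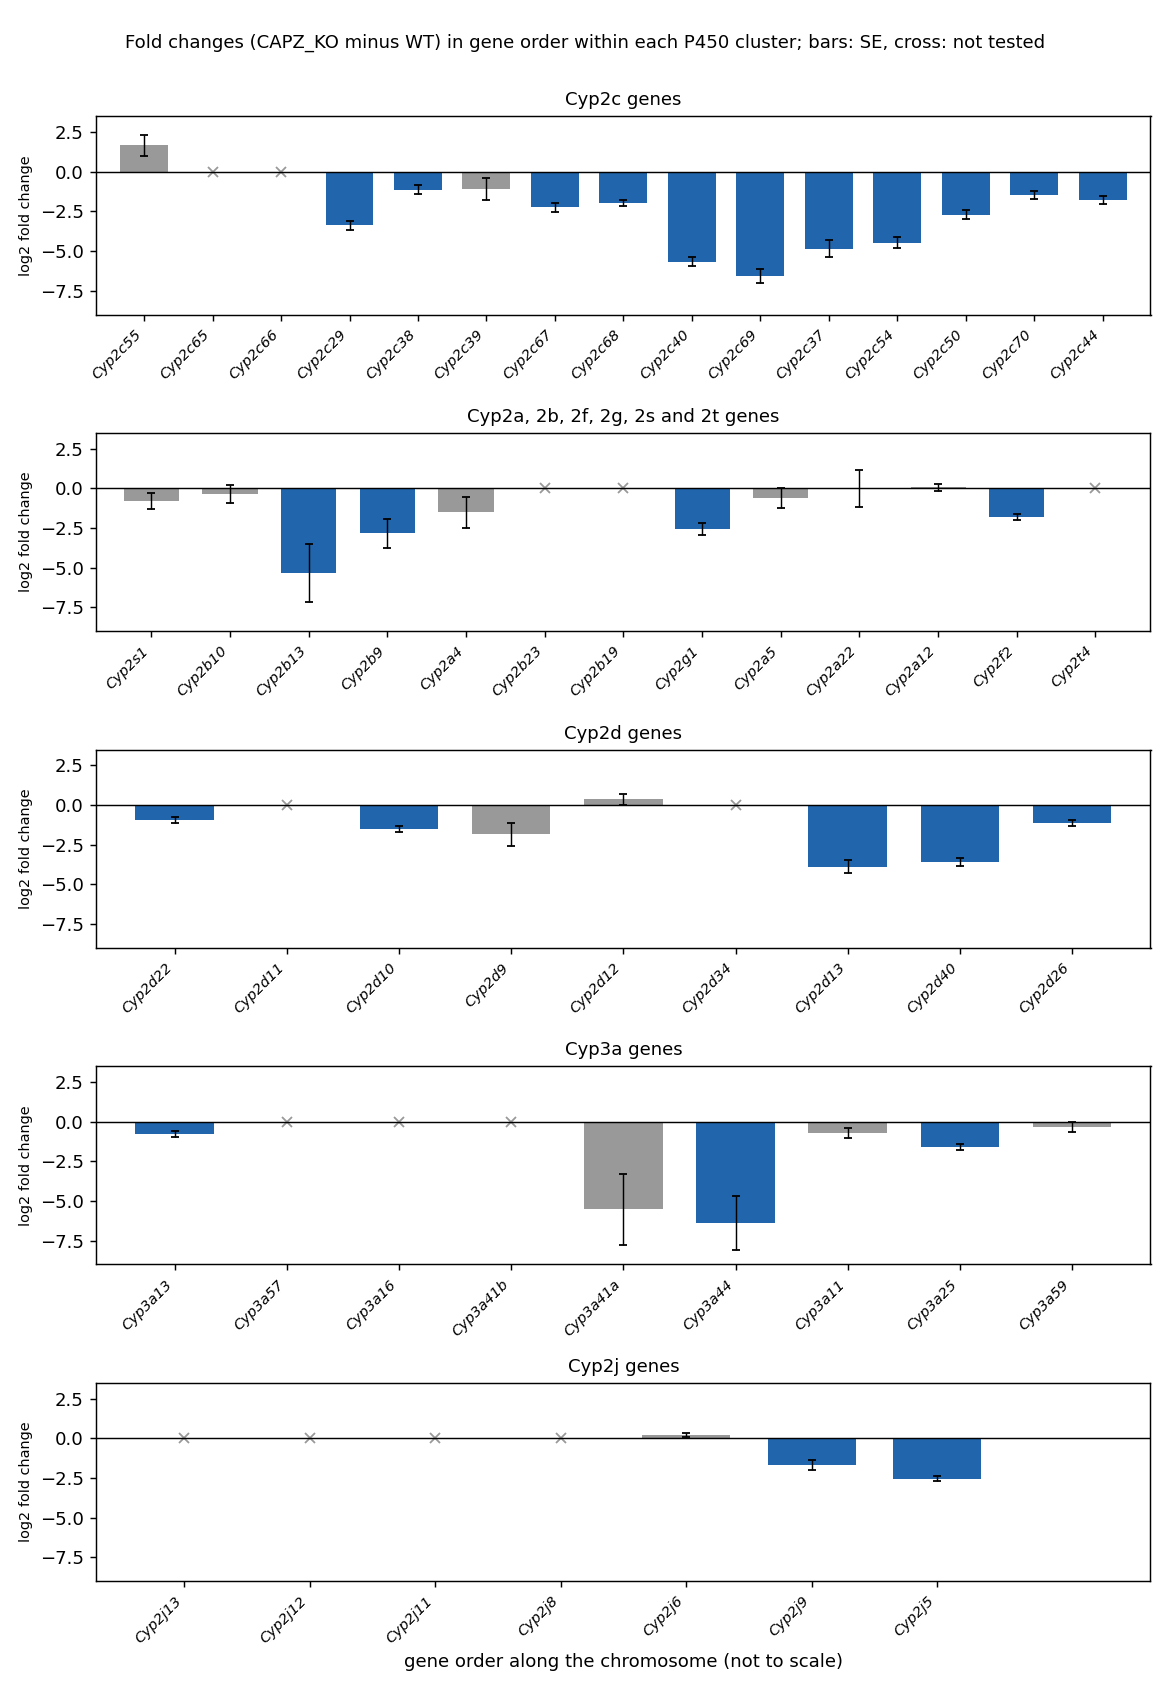
Log2 fold change, CAPZ_KO minus WT, with its SE, for each P450 gene in its order along the chromosome, 1 panel per cluster. Blue bars passed an edgeR adjusted p under 0.05, grey bars did not, and crosses mark genes not tested. In the 2C cluster the bars run from 1.66 at Cyp2c55 to −6.56 at Cyp2c69 and −1.45 at Cyp2c70, and Cyp2c44, farther along the chromosome, is at −1.76.

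The promoters of the 2C copies are shown because the size of the fall differed among genes that are nearly the same in sequence. The windows come from the RefSeq promoter table (GRCm38.p6) and are read 5′ to 3′ on the strand of the gene, and capitals mark CAAAGTCCA, a motif that HNF4A binds.
Cyp2c69: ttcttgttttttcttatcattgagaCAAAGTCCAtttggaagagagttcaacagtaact
Cyp2c40: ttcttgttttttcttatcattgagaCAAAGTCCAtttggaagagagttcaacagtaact
Cyp2c68: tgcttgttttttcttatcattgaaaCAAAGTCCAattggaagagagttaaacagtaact
Cyp2c67: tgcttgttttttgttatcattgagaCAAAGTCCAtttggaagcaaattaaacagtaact
Cyp2c70: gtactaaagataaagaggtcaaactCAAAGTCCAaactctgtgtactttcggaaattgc
Cyp3a11: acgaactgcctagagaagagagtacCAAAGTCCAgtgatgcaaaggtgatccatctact
They lie at chr19:39886811-39886869, chr19:39812826-39812884, chr19:39741145-39741203, chr19:39649134-39649192, chr19:40187317-40187375 and chr5:145879930-145879988, all on the minus strand. The windows of Cyp2c69 and Cyp2c40 were identical over 59 bases, and those of Cyp2c68 and Cyp2c67 matched that of Cyp2c40 at 93.2% and 89.8% of positions. The first pair had log2 values of −6.56 and −5.67 and the second of −1.96 and −2.25. The windows of Cyp2c70 and Cyp3a11, motif included, matched it at 30.5% and 39.0%. The motif was searched on both strands from 250 bases before to 50 after the start. It was found in 7 of 40 promoters of tested P450 genes, which are 7 of 38 genes. Of all 32851 promoters, whether or not their gene was tested here, 0.475% held it. Of the genes with it, the 5 of subfamily 2C fell, and Cyp3a11 and Cyp3a41a were not called. Among all 38 tested P450 genes with a promoter, 23 were lower, and a link between the motif and the falls was not tested. The 2C copies are close in sequence, so they are not separate cases. The coding sequence of Cyp2c40 also matches that of Cyp2c68 at 98.1% of bases, and 75.3% of its stretches of 50 bases occur in another gene, so that the division of reads among Cyp2c40, Cyp2c67, Cyp2c68 and Cyp2c69 is uncertain.

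Subfamily 2D, which holds the mouse relatives of the human drug-metabolising CYP2D6, had 5 of 7 tested genes lower (19.0% of all tested genes). Its most abundant gene was Cyp2d26 (chromosome 15, 82790101 to 82794294), and WT 1 to WT 4 gave 1328, 1074, 1034 and 1515 CPM, against 431, 705, 549.5 and 569 CPM in CAPZ_KO 1 to CAPZ_KO 4. The groups did not overlap (log2 fold change −1.13 ± 0.194 SE, adjusted p 0.00131 by edgeR). Cyp2d10 and Cyp2d22 fell, with log2 values of −1.5 and −0.94 (adjusted p 0.000182 and 0.00142 by edgeR). The less abundant Cyp2d13, which RefSeq lists as a transcribed pseudogene, and Cyp2d40 had larger falls, with log2 values of −3.90 and −3.58 (adjusted p 0.000135 and 1.45e-05 by edgeR). Cyp2d12 was at 0.971 CPM or less in all libraries, with an edgeR adjusted p of 0.423. Cyp2d9, the male-predominant testosterone 16α-hydroxylase, is described with the sex-predominant genes. The 2D coding sequences share from 11.5% (Cyp2d22) to 43.4% (Cyp2d10) of their 50-base stretches with other genes.

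Of the subfamilies with a single liver gene, Cyp2f2, a periportal enzyme that oxidises naphthalene (chromosome 7, 27119909 to 27133660), fell. For Cyp2f2 WT 1 to WT 4 gave 1388, 1142, 1757 and 894 CPM, against 374, 364, 314 and 435 CPM in CAPZ_KO 1 to CAPZ_KO 4. The groups lay apart, with a log2 fold change of −1.80 ± 0.218 (SE, adjusted p 0.000193 by edgeR). Of 9 genes listed as pericentral, 7 fell (19.0% of all tested genes), with a median of −2.71, and Cyp3a11 and Cyp2a5 were not called. A single periportal gene allows no comparison between the zones. Cyp2j5, an arachidonic acid epoxygenase of liver and kidney, fell as well, and WT 1 to WT 4 gave 861, 699.6, 966 and 779 CPM, against 162, 133, 142 and 129 CPM in CAPZ_KO 1 to CAPZ_KO 4. Its log2 fold change was −2.55 ± 0.158 (SE, adjusted p 6.22e-06 by edgeR). Its relative Cyp2j9 fell by 1.68 (adjusted p 0.00245 by edgeR) and Cyp2j6 stood at 91.3 ± 14.5 CPM (WT) and 105 ± 11.2 CPM (CAPZ_KO, mean ± SD, n = 4, adjusted p 0.281 by edgeR). Cyp2r1, the vitamin D 25 hydroxylase, stood at 23.7 ± 2.23 CPM (WT) and 11.6 ± 1.11 CPM (CAPZ_KO, mean ± SD, n = 4, log2 value −1.03 ± 0.129 SE, adjusted p 0.000219 by edgeR). Cyp2g1, best known from the olfactory mucosa, fell from 4.72 ± 2.48 CPM to 0.809 ± 0.171 (mean ± SD over n = 4, adjusted p 0.000664 by edgeR). Cyp2s1, an enzyme of epithelia outside the liver, was at 3.78 ± 2.66 and 2.12 ± 0.821 CPM (SD, n = 4, adjusted p 0.232 by edgeR). Exons of Cyp2f2, Cyp2a4, Cyp2c55, Cyp2s1 and Cyp2u1 overlap a gene on the opposite strand, as do those of the uncounted Cyp2t4. On the same strand, exons of Cyp2c29 overlap a pseudogene, and those of Cyp2d9, Cyp2d10, Cyp2d11 and Cyp2d12 overlap other annotated genes.

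**Figure D4:**
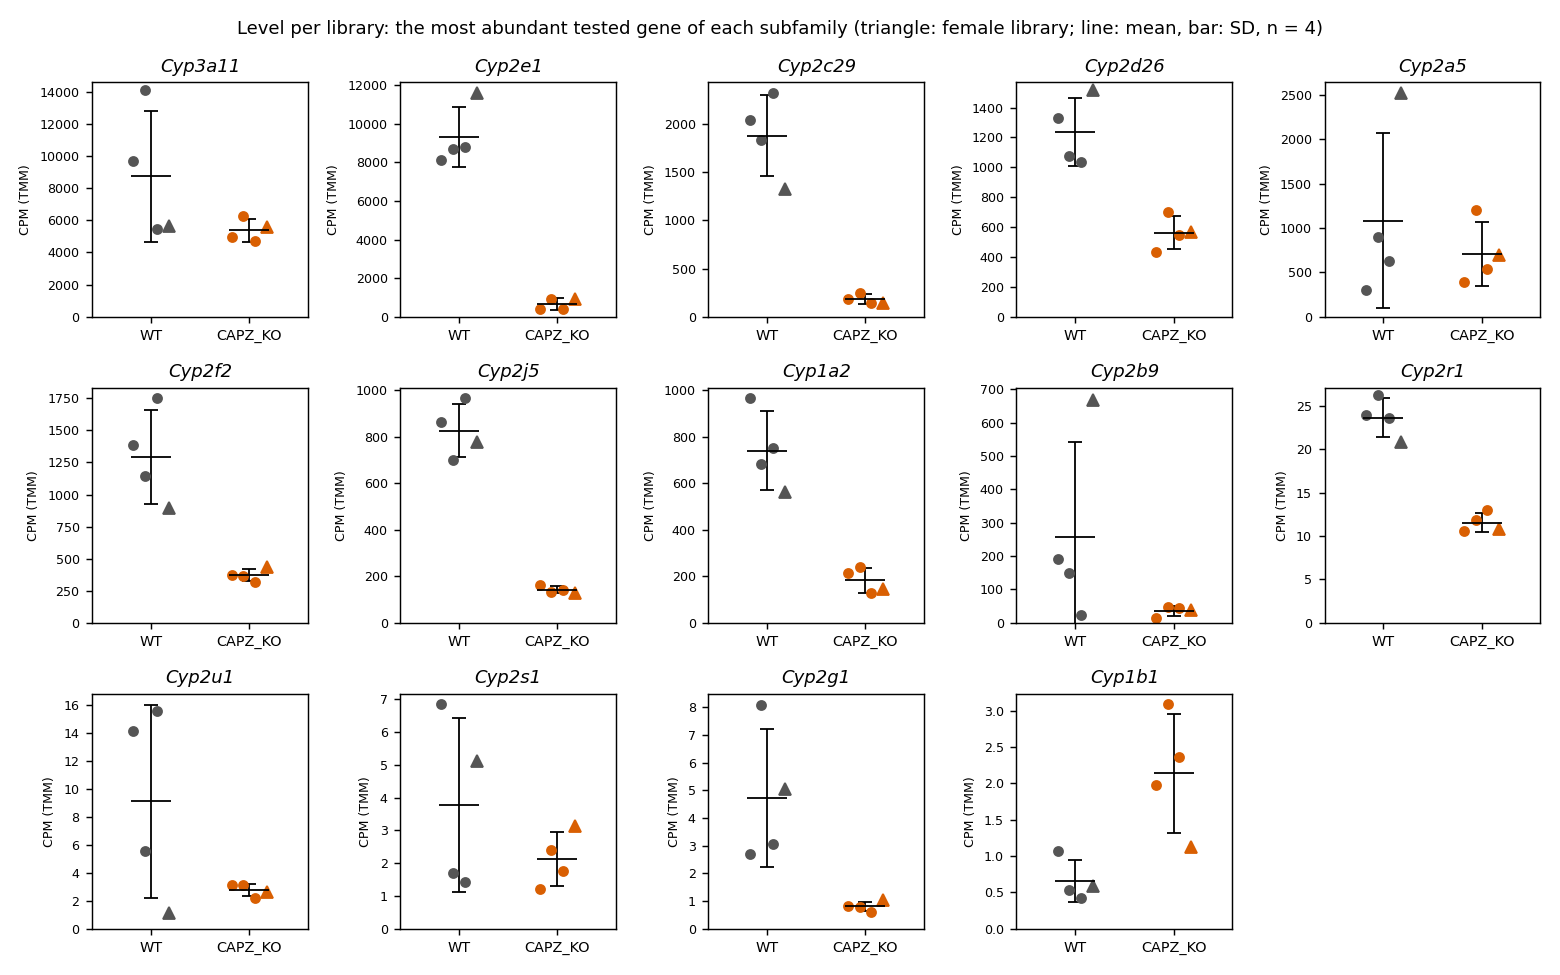
Level in CPM, scaled by TMM, of the most abundant tested gene of each subfamily in the 4 WT and 4 CAPZ_KO libraries. Points are libraries, triangles the female libraries, lines the means and bars the SD, cut at 0. For Cyp2e1, Cyp2c29, Cyp2d26, Cyp2f2, Cyp2j5, Cyp1a2, Cyp2r1 and Cyp2g1 all CAPZ_KO points lie below all WT points, for Cyp1b1 above them, and for Cyp3a11, Cyp2a5, Cyp2b9, Cyp2u1 and Cyp2s1 the groups overlap.

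Subfamily 2A was the exception among the abundant subfamilies, with none of its 4 tested genes called in either direction by edgeR. At an unadjusted edgeR p under 0.05 the number was 0 as well, and DESeq2 called none of the 3 to which it gave an adjusted p (Cyp2a22 had none). Lack of a call does not show that a gene was unchanged. Cyp2a4 had a log2 fold change of −1.50 ± 0.995 (SE, adjusted p 0.261 by edgeR), with WT libraries from 20.9 to 864 CPM. For Cyp2a5, the coumarin hydroxylase, WT 1 to WT 4 gave 298, 895, 623 and 2518 CPM, against 393, 1207, 533 and 694 CPM in CAPZ_KO 1 to CAPZ_KO 4. WT 4 was the highest library and WT 1 the lowest, with the CAPZ_KO libraries between them (log2 fold change −0.62 ± 0.614 SE, adjusted p 0.452 by edgeR). For Cyp2a12, a testosterone hydroxylase, WT 1 to WT 4 gave 665, 609.8, 675 and 778 CPM, against 472, 849.8, 594 and 972 CPM in CAPZ_KO 1 to CAPZ_KO 4. The groups overlapped and the log2 fold change was 0.082 ± 0.223 (SE, adjusted p 0.789 by edgeR), and 0.69 (adjusted p = 0.0131) with library sizes alone. For Cyp2a22 WT 1 to WT 4 gave 9.87, 4.87, 0.923 and 114 CPM, against 17.9, 41.5, 29.8 and 40.7 CPM in CAPZ_KO 1 to CAPZ_KO 4. Among the males every CAPZ_KO library lay above every WT library, and the single WT library above them all was the female WT 4. In the males alone the log2 fold change was 2.55 with an adjusted p of 0.0385, whereas over all 8 libraries it was −0.0026 ± 1.19 (SE, adjusted p 0.999 by edgeR). Cyp2a4 and Cyp2a5 match at 98.4% of coding bases and Cyp2a12 and Cyp2a22 at 97.0%.

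Of 7 P450 genes listed as higher in females of the mouse, Cyp3a41b had no count and the other 6 were highest in the female WT library, with levels in the female CAPZ_KO library far below it. For Cyp3a41a WT 1 to WT 4 gave 0, 2.17, 0 and 193 CPM, against 0.631, 0.648, 2.48 and 0.665 CPM in CAPZ_KO 1 to CAPZ_KO 4. For Cyp3a44 WT 1 to WT 4 gave 7.19, 7.77, 0.994 and 141 CPM, against 0.406, 0.399, 0.484 and 0.562 CPM in CAPZ_KO 1 to CAPZ_KO 4. WT 4 thus stood alone. CAPZ_KO 4 lay within the range of the CAPZ_KO males for Cyp3a41a and just above it for Cyp3a44, at 1.39 times their median. Cyp3a16, which was not tested, had 1356 raw counts in WT 4 and 1 to 8 in each of the other 7 libraries, CAPZ_KO 4 with 3 among them. For Cyp2b13, of the 2B subfamily of steroid hydroxylases, WT 1 to WT 4 gave 34.0, 40.9, 0.142 and 439.9 CPM, against 0.225, 3.99, 2.0 and 6.54 CPM in CAPZ_KO 1 to CAPZ_KO 4. For Cyp2b9 WT 1 to WT 4 gave 189.8, 149, 24.2 and 669 CPM, against 15.1, 46.6, 45.2 and 38.1 CPM in CAPZ_KO 1 to CAPZ_KO 4. WT 4 was again the highest, and CAPZ_KO 4 was at 0.844 times the median of the CAPZ_KO males for Cyp2b9 against 4.48 times that of the WT males for WT 4. For Cyp2b13 CAPZ_KO 4 was above all CAPZ_KO males, at 3.28 times their median, against 12.9 times the median of the WT males for WT 4. For Cyp2a4, a testosterone hydroxylase, WT 1 to WT 4 gave 105, 748, 20.9 and 864 CPM, against 89.5, 247, 165 and 111 CPM in CAPZ_KO 1 to CAPZ_KO 4, and WT 2, a male library, came close to WT 4. With 1 female library per group, these differences between females have no replicate check and were not tested.

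Over all libraries 3 of 5 tested genes of this kind were called lower, against 19.0% of all tested genes. Each of these calls was lost in some of the fits that left out a library. Raw counts of Cyp3a44 were 14 to 2179 per WT library and 8 to 11 per CAPZ_KO library. Cyp3a44 had −6.40 ± 1.70 (SE, adjusted p 0.0196 by edgeR), −3.61 with an adjusted p of 0.006 in the males alone, and adjusted p from 0.0567 to 0.0624 in the fits without 1 CAPZ_KO library. Cyp2b13 had −5.34 ± 1.81 (SE, adjusted p 0.0483 by edgeR) and −3.61 with an adjusted p of 0.137 in the males alone. Without WT 4 its value was −2.98, and only the fit without WT 3, of those that left out 1 library, kept the adjusted p under 0.05. Cyp2b9 had −2.83 ± 0.898 (SE, adjusted p 0.037 by edgeR), −1.77 with an adjusted p of 0.152 in the males alone, −1.75 without WT 4, and an adjusted p over 0.05 without WT 1 or any CAPZ_KO library as well. Cyp3a41a and Cyp2a4 were not called (adjusted p 0.0859 and 0.261 by edgeR), and Cyp3a41a had 0.62 in the males alone. Cyp2b10, the classical target of CAR, was at 27.3 ± 10.97 CPM (WT) and 21.6 ± 18.8 CPM (CAPZ_KO, mean ± SD, n = 4, adjusted p 0.664 by edgeR). Cyp3a41b, whose coding sequence matches Cyp3a41a at 99.9% of bases, had no count in any library, so that the division of reads between the pair is uncertain.

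The male-predominant Cyp2d9 showed the opposite layout. For Cyp2d9 WT 1 to WT 4 gave 561, 578, 1097 and 57.1 CPM, against 192, 203, 89.4 and 151 CPM in CAPZ_KO 1 to CAPZ_KO 4. The female WT 4 was the lowest of all 8 libraries, while the female CAPZ_KO 4 lay among the CAPZ_KO males, all of which were below the WT males. Its log2 value was −1.85 ± 0.704 (SE) at an edgeR adjusted p of 0.0646 over all libraries, and −2.21 with an adjusted p of 0.00305 in the males alone. Cyp2u1, a fatty acid hydroxylase, had the same layout, and WT 1 to WT 4 gave 14.2, 5.59, 15.6 and 1.10 CPM, against 3.11, 3.14, 2.18 and 2.66 CPM in CAPZ_KO 1 to CAPZ_KO 4. Its log2 fold change was −1.70 ± 0.630 (SE, adjusted p 0.0552 by edgeR), and −2.06 with an adjusted p of 0.00344 in the males alone. By DESeq2 over all libraries Cyp2d9 and Cyp2u1 had adjusted p of 0.0331 and 0.0078. Cyp2u1 was set beside these genes after its values were seen.

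**Figure D5:**
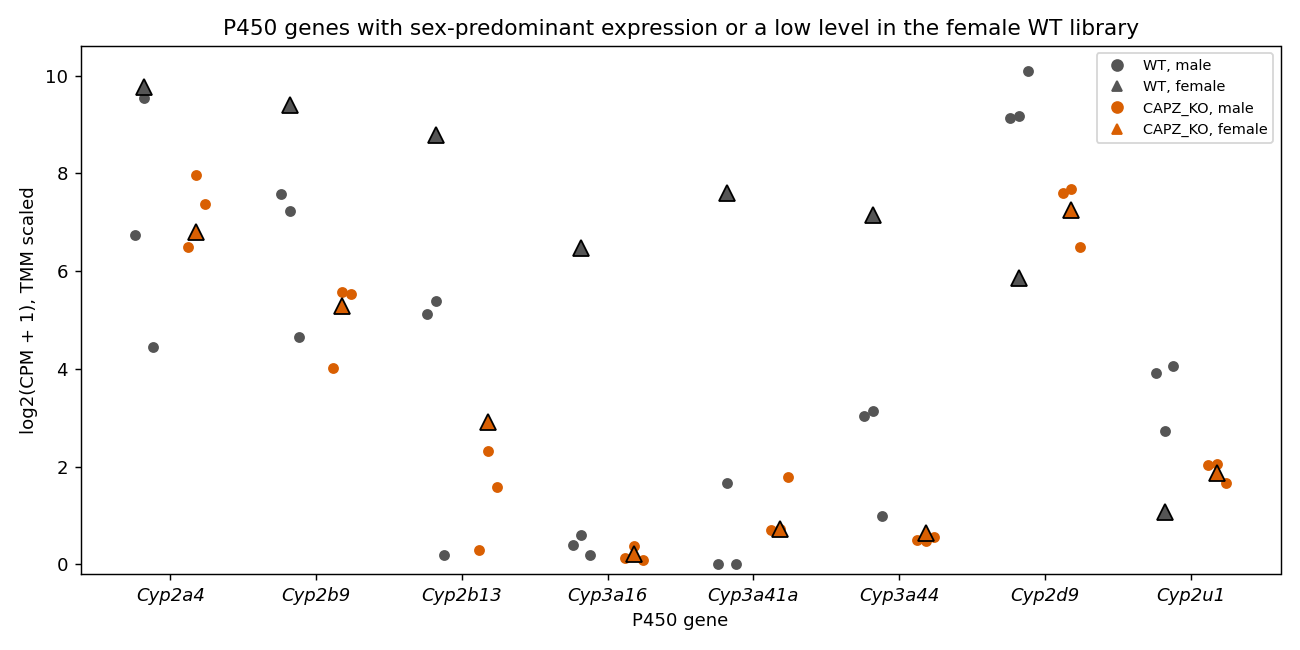
Level as log2(CPM + 1) of 6 genes known to be higher in females, of the male-predominant Cyp2d9 and of Cyp2u1, in each library. Triangles are the female libraries WT 4 and CAPZ_KO 4 and circles the males. For Cyp3a16, Cyp3a41a and Cyp3a44 the WT triangle stands alone, at 87.9, 193 and 141 CPM, and for Cyp2d9 it lies below all other points.

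Of the remaining 3A genes, Cyp3a25 and Cyp3a13 fell and Cyp3a59 was not called. For Cyp3a25 WT 1 to WT 4 gave 561, 736, 537 and 539.9 CPM, against 161, 259, 178 and 201 CPM in CAPZ_KO 1 to CAPZ_KO 4, a log2 fold change of −1.57 ± 0.187 (SE, adjusted p 0.000178 by edgeR). Cyp3a13, known mainly from the intestine, was at 294 ± 63.4 CPM (WT) and 173 ± 41.8 CPM (CAPZ_KO, mean ± SD, n = 4, log2 fold change −0.77 ± 0.206 SE, adjusted p 0.0137 by edgeR), and −0.16 (adjusted p = 0.492) with library sizes alone. Both genes had all CAPZ_KO libraries below all WT libraries. Cyp3a59, which matches Cyp3a25 at 97.5% of coding bases, was at 32.8 ± 16.9 and 25.8 ± 4.21 CPM (SD, n = 4, adjusted p 0.401 by edgeR).

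Some partners of the P450 enzymes fell as well. Of 8 tested genes of electron transfer and heme handling, 4 were lower and 0 higher, with a median log2 fold change of −0.69, against 19.0% of all tested genes lower and 22.4% higher. Cyb5a (cytochrome b5), its outer mitochondrial form Cyb5b and the heme-binding Pgrmc1 and Pgrmc2 fell, with log2 values of −0.83, −1.18, −0.74 and −0.64 (adjusted p 0.002, 0.00242, 0.00222 and 0.00186 by edgeR). For Por, the reductase that serves all of these P450 enzymes, WT 1 to WT 4 gave 299, 641, 627 and 1235 CPM, against 173, 393, 299.7 and 549.9 CPM in CAPZ_KO 1 to CAPZ_KO 4. The groups overlapped, with a log2 fold change of −0.99 ± 0.443 (SE) and an edgeR adjusted p of 0.102, which was 0.00188 with the replicate number as a block, 0.036 without WT 1 and 0.036 by DESeq2. Of 7 genes of heme synthesis 5 were lower (19.0% of all tested genes), with a median of −0.76. Urod, Fech and Cpox fell, with log2 values of −0.76, −0.80 and −1.09 (adjusted p 0.00121, 0.00242 and 0.00312 by edgeR). Alad, which makes porphobilinogen, fell with TMM (−0.53, adjusted p 0.0337 by edgeR) and had 0.10 (adjusted p = 0.593) with library sizes alone. Alas1, the rate-limiting enzyme, had −1.40 ± 0.492 (SE, adjusted p 0.0464 by edgeR) with overlapping groups, and −0.91 (adjusted p = 0.127) without WT 2. Of the fits that left out 1 library, that without WT 1 kept its adjusted p under 0.05. Of 4 genes of heme breakdown none was called by edgeR (0 at an unadjusted p under 0.05, and 0 by DESeq2), and Hmox1 had 0.98 with an adjusted p of 0.143, 0.0138 in the males alone and 0.000504 with the block. With library sizes alone none of the 4 electron transfer genes named as lower was called. No test compared these lists with the P450 genes.

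Of 27 tested regulators of P450 genes, 13 were lower and 1 higher (median −0.71), against 19.0% and 22.4% of all tested genes. CAR (Nr1i3) fell by 1.44 (adjusted p 0.0268 by edgeR), with an adjusted p of 0.103 with library sizes alone, 0.0566 without WT 4, 0.0515 without CAPZ_KO 1 and 0.0586 without CAPZ_KO 3. PXR (Nr1i2) and AhR (Ahr) had 0.18 and 0.016 (adjusted p 0.617 and 0.926 by edgeR). Hnf4a, Cebpa, the bile acid receptor Nr1h4 and the fatty acid receptor Ppara fell, with log2 values of −0.71, −1.22, −1.01 and −2.04 and edgeR adjusted p of 0.0118, 0.000261, 0.00048 and 0.000919. The gene that rose was Nfe2l2, the antioxidant regulator NRF2, at 1.54 ± 0.154 (SE, adjusted p 7.01e-05 by edgeR). With library sizes alone Hnf4a had −0.09 (adjusted p = 0.662), which is below the median of all genes under that scaling. mRNA levels of a receptor do not show its activity.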

How the data were processed

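The authors deposited a table of whole-number read counts, with gene symbols as rows and libraries as columns, which carries no scaling. Tools and build named in the submitters' processing notes, without their role, are bcl2fastq, STAR 2.5.3a, featureCounts, R 3.3.1, edgeR and mm10. The sources used here do not name the annotation, the strand setting or what was done with multi-mapping reads. Reads of near-identical P450 copies can therefore be divided or dropped in ways that are unknown.

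Genes were kept by filterByExpr of edgeR 4.0.16 (minimum count 10, minimum total 15), which left 12985 of 24421. Counts of all 8 libraries were scaled by TMM (WT factors 0.774 to 0.847, CAPZ_KO factors 1.18 to 1.33) and tested with edgeR's quasi-likelihood method (robust, group as the only term), adjusted by Benjamini-Hochberg over all tested genes, with a threshold of 0.05 (R 4.3.3). The SE is the log2 fold change divided by the square root of the F statistic. The common biological coefficient of variation was 24.9%. Every adjusted p comes from edgeR unless limma 3.58.1 or DESeq2 1.42.0 is named. The code was tested on simulated counts. No library was a duplicate of another in its group, since chi-square over degrees of freedom was 26.7 to 146 for the pairs.

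Positions, exon lengths and coding sequences are from GENCODE vM21 (GRCm38, which mm10 also names), and promoters from RefSeq. Cyp2c44 and Cyp2d13 have no entry of that symbol in GENCODE vM21, and were placed by RefSeq, where Cyp2c44 is a synonym of Cyp2c23. Coding identity was computed within a subfamily, and shared stretches of 50 bases against all transcripts.

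The members, lists and tests were chosen with earlier results of these data known. Genes with values were set by a rule: in each subfamily the most abundant tested gene, the genes that rose, the 12 with the largest falls, the listed sex-predominant, zonal and AhR genes, and the 5 most abundant genes not called. Other members are given for completeness, and of each partner list up to 4 genes with the smallest p and 7 fixed genes. A gene of the heme synthesis list is not reported here and is left out of its counts. Cell type markers were lists from textbook knowledge. The alternatives were other scalings, no filter, DESeq2, limma-voom, a threshold of 0.01, the replicate number as a block, leaving out each library and leaving out both female libraries.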

Additional observations from a re-analysis of the deposited data

Results flagged for a closer look

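Each group of 4 libraries was checked for a library whose gap to its nearest neighbour took most of the range of the group. Of 90 groups, 2 for each of the 45 tested P450 genes, 10 had such a library. Chance would give about 4.50 for independent groups of normally distributed values. The check used CPM without a log, and near-identical genes are not independent, so that figure is only a rough guide. The female WT 4 was the library that stood apart in 5 of the 10 groups. It stood high for Cyp2a22 at 114 CPM (next highest 9.87), Cyp2b13 at 439.9 (next 40.9), Cyp3a41a at 193 (next 2.17) and Cyp3a44 at 141 (next 7.77), and low for Cyp2c44 at 259 CPM (next lowest 499.9). CAPZ_KO 4, the other female library, stood apart in this way for none of the 45 genes.

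The other cases were spread over 4 libraries. WT 2 stood high for Cyp3a25 at 736 CPM, WT 3 low for Cyp2d22 at 249.8, CAPZ_KO 1 low for Cyp2c38 at 33.0 and for Cyp2c69 at 1.62, and CAPZ_KO 3 high for Cyp3a41a at 2.48.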

How the results depend on the processing

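The number of P450 genes called lower, 28, was 23 to 30 under the alternatives run, and 22 of those genes were called lower in every one of the 16 fits other than the stricter threshold. The exceptions were Cyp2b9, Cyp2b13, Cyp2c38, Cyp2d22, Cyp3a13 and Cyp3a44. The number called higher, 1, was 5 with library sizes alone, 2 with the replicate block (where 26 were lower) and 3 without both female libraries. Leaving out each library gave 25 to 29 lower and 1 to 3 higher, the 3 without WT 4, where Cyp2a22 and Cyp2c55 joined Cyp1b1. Cyp2c38, Cyp2d22 and Cyp3a13 lost their calls with library sizes alone. That fit tests each gene against no change, while the median of all genes under it lay at 0.62.

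Log2 fold changes that changed sign belonged to genes not called over all libraries with TMM, except Alad, and the cause was not tested. With library sizes alone they were Alad 0.102, Cyp1a1 0.522, Cyp2a22 0.547, Cyp2b10 0.24, Cyp3a59 0.275, Hmox2 0.526. With DESeq2 size factors, Ahr −0.0053, with the DESeq2 test, Ahr −0.0039, with upper quartile scaling, Cyp2a22 0.0586, with no filter, Cyp2a22 0.0033, with limma-voom, Cyp2a22 1.82, with the replicate block, Cyp2a22 1.66, and without both female libraries, Cyp2a12 −0.0304, Cyp2a22 2.55, Cyp2a5 0.227, Cyp3a41a 0.618. Over the fits that leave out 1 library the ranges were Ahr −0.078 to 0.039, Cyp1a1 −0.33 to 0.20, Cyp2a12 −0.099 to 0.21, Cyp2a22 −0.41 to 2.68, Cyp2a5 −1.03 to 0.21, Cyp2c39 −1.45 to 0.027, Cyp3a41a −6.24 to 0.45, Cyp3a59 −0.58 to 0.042, Nr1i2 −0.037 to 0.43. Replicate numbers are shared between the groups, and number 4 falls on the female library of each. The deviations of same-numbered libraries from their group means correlated at 0.244, 0.00890, 0.0660, 0.303 for numbers 1 to 4. WT 1, WT 3 and WT 4 correlated best with the CAPZ_KO library of their own number, and WT 2 with CAPZ_KO 3 (0.0354). CAPZ_KO 2 and CAPZ_KO 3 correlated best with WT 4 (0.108) and WT 1 (0.0869). These values do not decide whether the numbers pair the samples. The calls come from a fit without the number, and the block was run as an alternative. Cyp2d12 rests on 4 to 19 counts per library, and its values have wide counting error.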

Other observations

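Among the P450 genes of family 4 and above, some rose in the same livers. Cyp4f16 and Cyp4f18, of the subfamily that inactivates leukotrienes, had log2 values of 1.82 and 2.22 (adjusted p 0.00282 and 0.00181 by edgeR), and Cyp21a1, the steroid hydroxylase of the adrenal, had 2.88 at a mean of 1.26 CPM in CAPZ_KO (adjusted p 0.00262 by edgeR). These are the 3 of 25 that rose, named after their values were seen.

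Other motifs searched on both strands of the same promoters were the TATA box (TATAAA), found in 23 of 40 promoters of tested P450 genes and 13.6% of all promoters, the C/EBP motif (TTGCNNAA), in 12 and 10.8%, and the AhR core (GCGTG), in 6 and 32.4%. An HNF1 motif (GTTAATNAT) and a STAT5 motif (TTCNNNGAA), found in 0.801% and 8.30% of all promoters, had 0 matches among the 40, which says only that these letters are not in the windows searched.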
